A study of Mus musculus with 8 samples.

Results

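The BCL2 family decides whether a cell opens the outer membrane of its mitochondria and dies. Guardians such as BCL2, BCL-XL (Bcl2l1), MCL1 and BCL2L10 hold the pore-forming effectors BAX and BAK (Bak1) in check, and BH3-only proteins such as BIM (Bcl2l11), BID and PUMA (Bbc3) bind the guardians or effectors and push the balance towards death. The transcription factor p53 (Trp53) induces Bbc3 and other death genes after DNA damage. In the ovary, Bcl2l10 is known as a family member with abundant transcript in oocytes. MCL1 is known to be needed for early embryo survival.

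The 10 genes described here were chosen by name: the guardians Bcl2l10, Mcl1, Bcl2 and Bcl2l1, the effectors Bax and Bak1, the BH3-only genes Bid, Bcl2l11 and Bbc3, and Trp53. All probe sets annotated to 1 of these genes alone were read, which gave 27 probe sets for 8 of the 10 genes, out of 45101 probe sets on the array and 18193 genes with a probe set. No probe set of Bax or Trp53 could be assigned from the annotation used, so neither gene is analysed here. The probe set that was brightest on average over all arrays stood for its gene. A filter on low values left 7 members among 11746 genes tested, and Bid was below it.

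The series holds 8 arrays of polyadenylated mouse RNA, hybridised to compare the genotypes labelled KO and WT for connexin 43 (Gja1), a gap junction protein, at 3 stages. Unfertilised oocytes arrested in the second meiotic metaphase (MII) and implantation sites had 1 array of each genotype. Blastocysts, the embryos just before implantation, had 2 of each. The series title speaks of a deletion directed to the oocyte, but the labels name no Cre driver, strain, age, sire or number of pooled cells, and do not say whether the blastocyst replicates came from separate animals. The p-values below therefore measure the spread between these arrays, which may be technical. In the stage tests the KO and WT arrays of oocytes and of implantation sites stand in for replicates. The spread there also includes any KO difference that is not shared by the stages.

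Values are MAS5 signals in arbitrary units, scaled by the same target on every array, so a level is compared between arrays and never between probe sets. Background was read from 15 probe sets for Bacillus genes, the brightest of which lay between 100.2 and 560 on the 8 arrays. Gja1 itself, at its representing probe set, read 150 (KO) and 126 (WT) in oocytes, 375 and 553 in KO blastocysts, 9835 and 574 in WT blastocysts, and 28105 (KO) and 44493 (WT) in implantation sites. The array labelled blastocyst WT replicate 2 was thus near the KO arrays, and the oocyte pair was near background, so the label of the former is not borne out by its target gene and the oocyte pair gives no check. The KO oocyte array also stood apart in RNA quality: its ratio of 3′ to 5′ signal was 6.68 for Actb and 2.41 for Gapdh, against 21.2 to 69.3 and 7.21 to 11.8 on the other 7 arrays. Oocyte markers (9 of 10 listed genes had a probe set) summed to 67965 and 103900 in oocytes and to between 521 and 2648 elsewhere, and all 10 blastocyst markers were above the brightest Bacillus control on all 4 blastocyst arrays. In the implantation site arrays the 10 uterine and decidual markers summed to 81811 and 69598 (1328 to 4385 elsewhere), with the progesterone receptor gene Pgr at 30636 and 27384. Of these 10, 6 were called higher than in blastocysts and 0 lower (limma), against 15.3% and 20% of all genes. Not all rose: Prl8a2 read 217 and 211 (708 and 588 in oocytes) and Des 26.6 and 356 (317 and 401 in oocytes). The 10 blastocyst markers summed to 5337 and 3645, with 4 and 6 of them above the brightest Bacillus control. Nanog (4.94 and 10.6) and Cdx2 (111 and 31.1) were under it, and Tfap2c (3893 and 1752) and Eomes (497 and 389) above it. Leukocyte markers summed to 24419 and 22098 there, mostly Csf1r (19673 and 18588) and Ptprc (3687 and 2558); 4 of the 6 listed were above the control, and Cd3e and Ncr1 were not. In such bulk samples, fewer cells of a type and less RNA per cell cannot be told apart, and the part of tissue makeup in the stage differences was not tested.

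Bcl2l10 was the member with the widest range. Its only probe set read 50909.7 in KO oocytes and 84908 in WT oocytes. In blastocysts it read 43.6 and 30.6 (KO) and 85.0 and 16.1 (WT), and in implantation sites 94.9 (KO) and 62.0 (WT). All 6 values after the oocyte were below the brightest Bacillus control of their array. The transcript was therefore at least 209.6-fold lower in blastocysts than in oocytes (log2 difference −10.8 ± 0.73 SE, adjusted p = 1.2e-06, limma over all genes) and at least 574-fold lower in implantation sites (−9.74 ± 0.84, adjusted p = 1.6e-05). Both calls held when any 1 of the 8 arrays was left out.

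**Figure D1:**
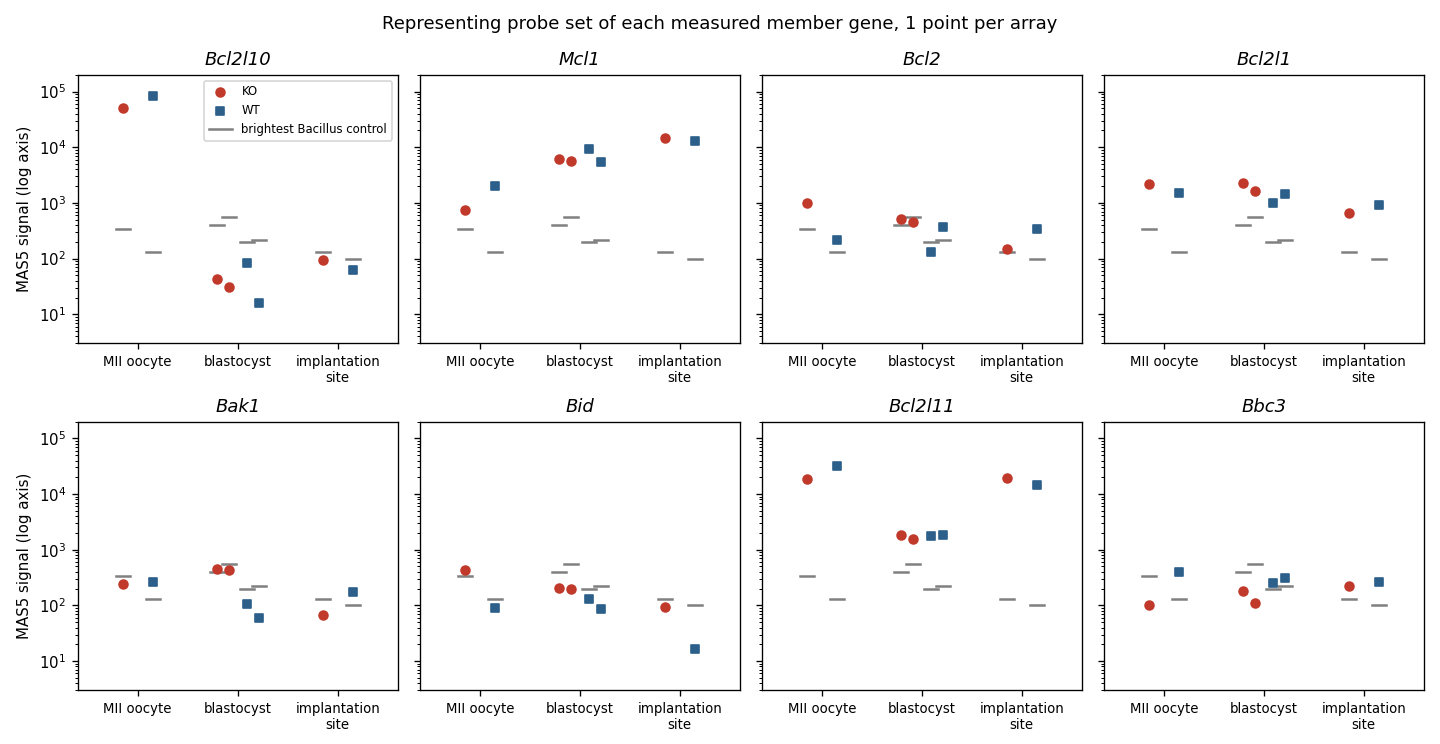
Signal (log axis, MAS5 units) of the representing probe set of each of the 8 measured genes by stage, 1 point per array, KO as circles and WT as squares, with the brightest Bacillus control of each array as a grey line. Bcl2l10 lies at 50909.7 and 84908 in the oocyte arrays and under the grey line on the other 6, whereas Bak1 and Bid stay near the line at all 3 stages; heights are not comparable between panels.

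Mcl1, a short-lived guardian, went the other way. Its representing probe set read 752 (KO) and 2039 (WT) in oocytes, 6027 and 5683 in KO blastocysts, 9208 and 5384 in WT blastocysts, and 14704 (KO) and 12946 (WT) in implantation sites. The 3 stages did not overlap, as in 56.8% of all genes between blastocyst and oocyte, 56.2% between implantation site and blastocyst and 68.7% between implantation site and oocyte. From oocyte to blastocyst the signal rose 5.18-fold (log2 difference 2.37 ± 0.37 SE, adjusted p = 0.00031, limma). All 6 probe sets of the gene were called higher in this step in a fit over every single-gene probe set, by 2.34 to 3.17 on the log2 scale; 13.9% of the 34945 probe sets were called higher there. All 6 were also called higher in implantation sites than in oocytes, where 10.9% of probe sets were called higher and 9.99% lower.

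The further step of Mcl1 to the implantation site depended on the probe set. The representing probe set rose 2.15-fold (log2 1.10 ± 0.37 SE, adjusted p = 0.037, limma), and so did 1437527_x_at (1.10), the other called probe set. Both carry the suffix by which Affymetrix marks probes that may match further sequences, as does 1456381_x_at, which was not called (0.49). The brightest probe set without a suffix, 1448503_at, read 8348, 8446, 7976 and 8124 in the 4 blastocyst arrays and 8306 (KO) and 6458 (WT) in implantation sites, so the stages overlapped, with a log2 difference of −0.17. The call at the representing probe set was lost without blastocyst KO replicate 1 (adjusted p = 0.062), KO replicate 2 (0.073), the array labelled WT replicate 2 (0.11) or the KO implantation site (0.36).

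Bcl2, the founding guardian, gave different pictures at its 5 probe sets. The representing one read 1009 (KO) and 219 (WT) in oocytes, 518, 446 (KO), 129 and 371 (WT) in blastocysts, and 149.7 (KO) and 342 (WT) in implantation sites. The stages overlapped and no stage difference was called there, the lowest of its 3 adjusted p being 0.36 (limma). Another probe set, 1440770_at, read 75.0 and 107 in oocytes, between 6.48 and 8.09 in the 4 blastocyst arrays, and 1665 (KO) and 1103 (WT) in implantation sites.

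A further Bcl2 probe set, 1457687_at, read 104 and 372 in oocytes, between 23.6 and 182 in blastocysts, and 1107 (KO) and 992 (WT) in implantation sites. Both of these probe sets were called higher in implantation sites than in blastocysts in the fit over every probe set (adjusted p = 8.8e-05 and 0.0063, limma), at least 4.32-fold and at least 3.34-fold once blastocyst background is set as the floor. In that fit 8.75% of probe sets were called higher. The remaining probe sets, 1443837_x_at and 1437122_at, differed by 0.18 and −0.023 on the log2 scale in the same step and were not called. The signal in the implantation site thus depended on the probe set, and no single stage order can be given for Bcl2.

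**Figure D2:**
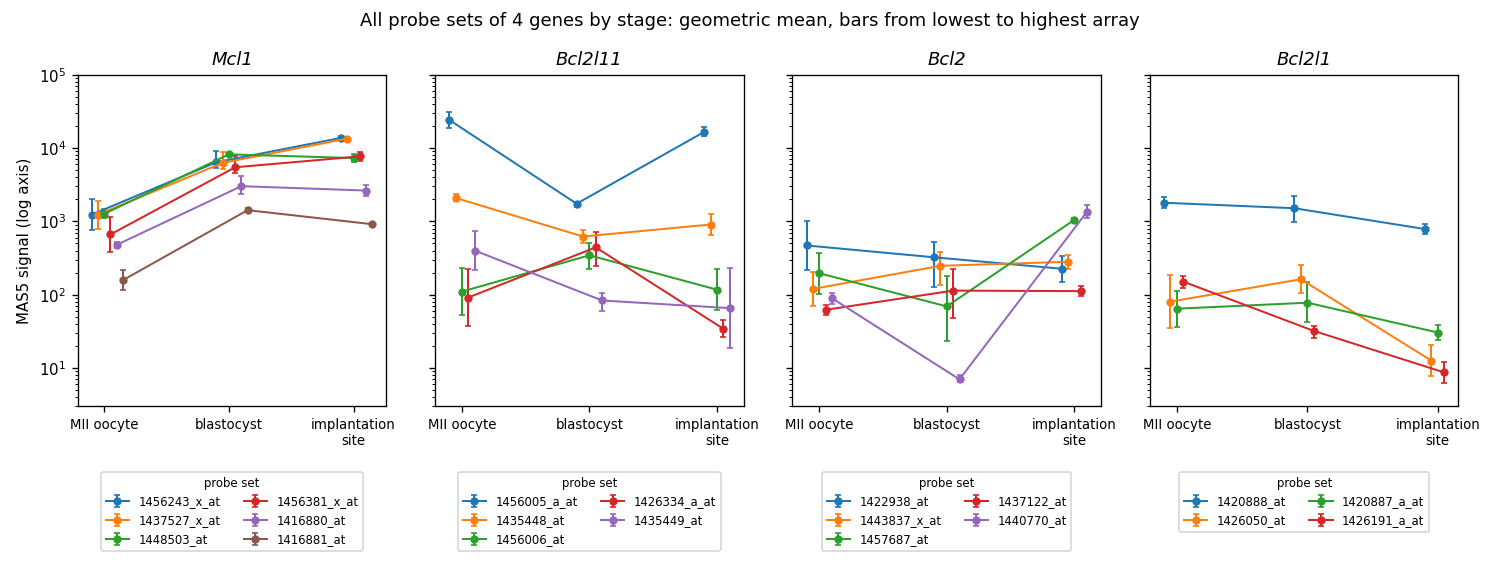
Every probe set of Mcl1, Bcl2l11, Bcl2 and Bcl2l1 by stage on a log axis of MAS5 signal; points are geometric means over the 2, 4 and 2 arrays of a stage, and bars run from the lowest to the highest array. The 6 lines of Mcl1 all climb from oocyte to blastocyst, whereas those of Bcl2 and Bcl2l11 cross.

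Bcl2l1, which encodes the guardian BCL-XL, stood above Bacillus background throughout and had small stage differences. Its representing probe set read 2155 (KO) and 1503 (WT) in oocytes, 2248 and 1657 (KO) and 985 and 1430.2 (WT) in blastocysts, and 673 (KO) and 920.2 (WT) in implantation sites. Both implantation site arrays lay under the other 6. Against oocytes the log2 difference was −1.19 ± 0.43 SE (2.29-fold lower, adjusted p = 0.047, limma), and against blastocysts it was −0.94 ± 0.37 (adjusted p = 0.068). Leaving out 1 array kept the call against oocytes only for the arrays labelled blastocyst WT replicate 1 and implantation site WT. It was lost without oocyte KO (adjusted p = 0.18), oocyte WT (0.11), blastocyst KO replicate 1 (0.057), KO replicate 2 (0.069), the array labelled WT replicate 2 (0.069) or implantation site KO (0.35). The other 3 probe sets of Bcl2l1 never exceeded the brightest Bacillus control.

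Among the effectors, Bak1 stayed near background. Its representing probe set, 1425716_s_at, read 246 (KO) and 263 (WT) in oocytes, 448 and 436 (KO) and 106 and 59.5 (WT) in blastocysts, and 66.7 (KO) and 171 (WT) in implantation sites. It exceeded the brightest Bacillus control on 3 of 8 arrays, and no stage difference was called. Its suffix marks probes shared by transcripts of more than 1 gene, although the annotation lists Bak1 alone.

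Bid, a BH3-only gene whose protein is cut by caspase 8, was also near background. Its representing probe set read 434 (KO) and 89.6 (WT) in oocytes, 206 and 196 (KO) and 129 and 87.8 (WT) in blastocysts, and 93.6 (KO) and 16.5 (WT) in implantation sites. It exceeded the brightest Bacillus control only in the KO oocyte array. It was not tested among genes; in the fit over every probe set its 3 stage differences had adjusted p values of 0.13 to 0.79 (limma). Of its other probe sets, 1448560_at was called lower in implantation sites than in blastocysts (log2 −3.47, adjusted p = 0.035), and 1417045_at ran the other way and was not called (1.81). Each exceeded the brightest Bacillus control on 1 of 8 arrays.

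Bcl2l11, which encodes the BH3-only protein BIM, had a dip in the blastocyst at its brightest probe set. Its representing probe set, 1456005_a_at, read 18924 (KO) and 31254 (WT) in oocytes, 1803 and 1569 (KO) and 1761 and 1856 (WT) in blastocysts, and 19108 (KO) and 14447 (WT) in implantation sites. The 4 blastocyst values lay close together, all far under both other stages. The signal fell 13.9-fold from oocyte to blastocyst (log2 difference −3.80 ± 0.30 SE, adjusted p = 3.0e-06, limma) and was 9.53-fold higher in implantation sites than in blastocysts (3.25 ± 0.30, adjusted p = 2.8e-05). Both calls held when any 1 of the 8 arrays was left out.

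The other probe sets of Bcl2l11 shared the first step only in part. The next brightest, 1435448_at, read 2346 (KO) and 1871 (WT) in oocytes, 659, 754, 594 and 508 in the 4 blastocyst arrays, and 649.8 (KO) and 1268 (WT) in implantation sites. It was also called lower in blastocysts than in oocytes (log2 −1.75 ± 0.42 SE, adjusted p = 0.0050, limma over every probe set), where 10.8% of probe sets were called lower, but its rise to the implantation site was not called (0.54 ± 0.42, adjusted p = 0.38). Another probe set, 1426334_a_at, was nearer background and ran the other way: it read 243 and 416 (KO) and 720.3 and 529 (WT) in blastocysts and 26.2 and 45.1 in implantation sites. It was called lower in the latter (adjusted p = 0.0087, limma over every probe set), as were 12.3% of probe sets in that step. The fold was 3.87 with the implantation site values set to the brightest Bacillus control, which 2 of 4 blastocyst values exceeded. With the mean of all 5 probe sets as the measure, the fall from oocyte to blastocyst was −0.78 with an adjusted p of 0.18, so the call rests on the 2 brightest probe sets. The step to the implantation site was −0.36 with the same mean, so the called rise rests on the representing probe set.

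Bbc3, the p53 target that encodes PUMA, showed no stage difference. It read 104 (KO) and 390.2 (WT) in oocytes, 180.6 and 110.1 (KO) and 256 and 306 (WT) in blastocysts, and 221 (KO) and 261 (WT) in implantation sites. It exceeded the brightest Bacillus control on 5 of 8 arrays, and its stage differences lay between −0.018 and 0.27 on the log2 scale, each under its SE of 0.69 to 0.79.

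Counted over the 7 tested members, 3 were called between blastocyst and oocyte (Mcl1 higher, Bcl2l10 and Bcl2l11 lower), where 45.5% of all 11746 genes were called. Between implantation site and blastocyst 2 members were called (Mcl1 and Bcl2l11, both higher), where 35.3% of all genes were called. Between implantation site and oocyte 3 were called (Mcl1 higher, Bcl2l10 and Bcl2l1 lower), where 37.2% were. These shares are near those of all genes, and the 3 comparisons share arrays, so their counts are not separate evidence. The median log2 difference over all genes was 0.43, −0.35 and −0.061 in the 3 comparisons.

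**Figure D3:**
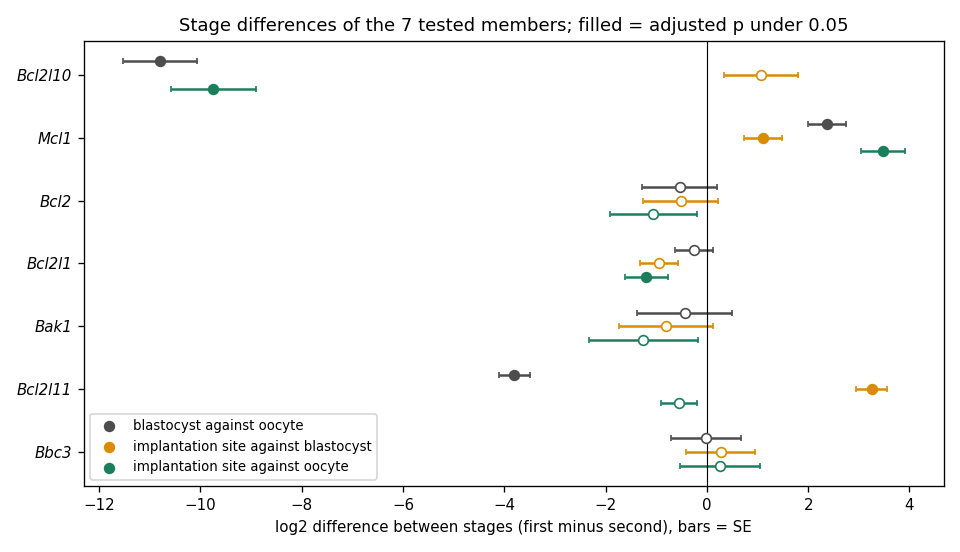
Log2 difference between stages (first named minus second) for the 7 tested genes, with bars of 1 SE from the limma fit over 8 arrays; filled points have an adjusted p under 0.05 and open points do not. Bcl2l10 stands at −10.8 and −9.74 against the oocyte, and Bcl2l11 at −3.80 and then 3.25.

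KO and WT blastocysts, the only stage with replicates of both genotypes, differed in none of the 7 members at an adjusted p under 0.05 (limma), where 0.102% of all genes were called. At an unadjusted p under 0.05 there was 1, Bak1, against 15.5% of all genes, and without the intensity trend in limma none was called either. Bak1 read 448 and 436 in KO and 106 and 59.5 in WT, so the genotypes did not overlap, as in 49.1% of all genes. Both WT values were under the brightest Bacillus controls of their arrays, and with them set to those controls the KO signal was 2.11-fold higher (measured log2 difference 2.47 ± 0.72 SE, adjusted p = 0.20, limma). The second Bak1 probe set, 1418991_at, read 117 and 171 in KO and 222 and 219 in WT, which is the opposite direction. Of the KO values at the first probe set, 448 was above the brightest Bacillus control of its array (395) and 436 was under its own (560). The fold is therefore not a lower bound.

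The guardians Bcl2 and Bcl2l1 and the BH3-only gene Bbc3 likewise had separate KO and WT values in blastocysts, with log2 differences of 1.14 ± 0.66 SE, 0.70 ± 0.35 and −0.99 ± 0.70. Their adjusted p values were 0.44, 0.37 and 0.52 (limma). Both KO values of Bbc3 were under the brightest Bacillus control, as were 1 KO and 1 WT value of Bcl2. The other Bcl2 probe sets differed: 1437122_at was separate in the opposite direction (log2 −1.69), with 1 of 4 values above the control. The genotypes overlapped at 1443837_x_at, 1457687_at and 1440770_at (0.25, −0.16 and −0.13). Bcl2l10 overlapped between genotypes (−0.017), but it was under the brightest Bacillus control on all 4 arrays, so its ratio carries no information. For Mcl1 the genotypes were separate at 1416880_at (log2 0.53), 1448503_at (0.061) and 1416881_at (−0.096). For Bcl2l11 they were separate at 1435448_at (0.36), 1456006_at (1.06) and 1426334_a_at (−0.96), where 49.1% of all genes did not overlap. Of the 4 values, 3 at 1456006_at and 2 at 1426334_a_at were above the control. At their representing probe sets Mcl1 and Bcl2l11 overlapped, with differences of −0.27 and −0.10. The array labelled WT replicate 2, whose Gja1 signal was near that of the KO arrays, moved these values: without it Bcl2 was 1.90 higher in KO and Mcl1 was lower (−0.65), with adjusted p values of 0.13 and 0.18, and still no member was called. The summed signal of the leukocyte markers also differed, at 8330 and 14342 in KO against 1229 and 4754 in WT blastocysts. Csf1r was the largest part of it on each array. Of the 6 listed genes 2 or 3 exceeded the brightest Bacillus control on each of these arrays. Ptprc was under it on each (120 and 46.7 in KO, 28.5 and 3.02 in WT). Cd68 overlapped between genotypes (57.4 and 25.2 in KO, 209 and 32.9 in WT). Tyrobp was higher in KO (1178 and 1842 against 287 and 580), as were Cd3e and Ncr1, mostly under the control. Whether the share of leukocytes differed was not tested. The part of these markers in the member values was not tested either.

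A genotype effect common to the 3 stages was called for none of the 7 members, and 0% of all genes were called; 6.92% of genes and no member had an unadjusted p under 0.05 (limma). Among the 7 tested members Bbc3 came closest to a common direction. Its KO value was lower than the WT values at each stage, and its 4 KO values (104 to 221) did not overlap its 4 WT values (256 to 390.2), which held for 0.604% of all genes. The log2 difference was −1.03 ± 0.56 SE with an adjusted p of 0.72 (limma), so it was not called. The direction in the implantation site depended on the scaling. Bbc3 differed there by −0.24 as deposited, by 0.091 after quantile normalization and by 0.17 after scaling to a common median. Of its KO values 1 of 4 exceeded the brightest Bacillus control of its array, the implantation site, and of its WT values 4 of 4 did. That control was higher on the KO oocyte and blastocyst arrays (334, 395 and 560) than on the WT ones (132, 199 and 219), so these counts are not comparable between genotypes. At its representing probe set Bid, not tested among genes, was higher in KO at all 3 stages (log2 2.28, 0.92 and 2.50). Of these 8 values 1 was above the control. In oocytes, blastocysts and implantation sites 1417045_at was also higher in KO (2.32, 0.36 and 1.40). In contrast, 1448560_at was lower in KO at each stage (−0.089, −1.13 and −0.26). Each of these 2 probe sets had 1 of 8 values above the control.

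The oocyte pair, 1 array against 1 with no replicate check, had 3 of the 7 tested members at least 2-fold apart, where 36.2% of all genes were (23.9% higher and 12.3% lower in KO). Bcl2 was 4.61-fold higher in KO and Mcl1 2.71-fold lower. Bbc3 was under the brightest Bacillus control in the KO array, so that it was at least 1.17-fold lower there and is not shown to differ 2-fold. Other probe sets differed from the representing ones in size or direction: Mcl1 was 1.34-fold lower in KO at 1448503_at and 1.22-fold higher at 1416880_at. At the Bcl2 probe set 1457687_at, where the KO array was under the control, the KO signal was at least 1.12-fold lower. Of the 2 members called higher in oocytes than in blastocysts, Bcl2l10 was 1.67-fold lower in the KO oocyte array (log2 −0.74) and Bcl2l11 1.65-fold lower (−0.72). The same shift ran through the brightest transcripts of the pair: all 118 genes in the brightest 1% of tested genes in oocytes were lower in KO, with a median of −0.74 and quartiles of −0.86 and −0.58. Bcl2l10 was among these genes and lay at their median, and Bcl2l11 was not among them. After quantile normalization, which removes a shift shared by the brightest values, the difference of Bcl2l10 was −0.0086 and that of Bcl2l11 −0.12. The difference of Bcl2l10 thus cannot be told apart from that of the brightest genes as a whole. For Bcl2l11 this was not tested, and its probe set 1435448_at was 1.25-fold higher in the KO oocyte array. The 3′ to 5′ ratios of this pair differed as given above, and their part was not tested. Bid, which was not tested, was at least 3.28-fold higher in KO at its representing probe set, since its WT value there was under the control. Its other probe sets were under the control on both oocyte arrays.

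The implantation site pair, also 1 array against 1, had 2 of 7 tested members at least 2-fold apart, against 22% of all genes (6.12% higher and 15.9% lower in KO). Bcl2 was 2.28-fold lower in KO at its representing probe set. Bak1, the other, was under the brightest Bacillus control in the KO array and so at least 1.31-fold lower, which does not show a 2-fold difference. At the Bcl2 probe sets that were bright in this tissue, 1440770_at was higher in KO (log2 0.59) and 1457687_at nearly level (0.16). Mcl1, Bcl2l11, Bcl2l1 and Bbc3 were within 1.14-fold to 1.37-fold of WT at their representing probe sets. For Bcl2l11 this depended on the probe set. Its probe set 1435448_at, above the control on both arrays, was 1.95-fold lower in KO (650 against 1268). With the mean of all its probe sets Bcl2l11 was 2.57-fold lower in KO. Bcl2l10 was under the brightest Bacillus control on both arrays, so its ratio carries no information.

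**Figure D4:**
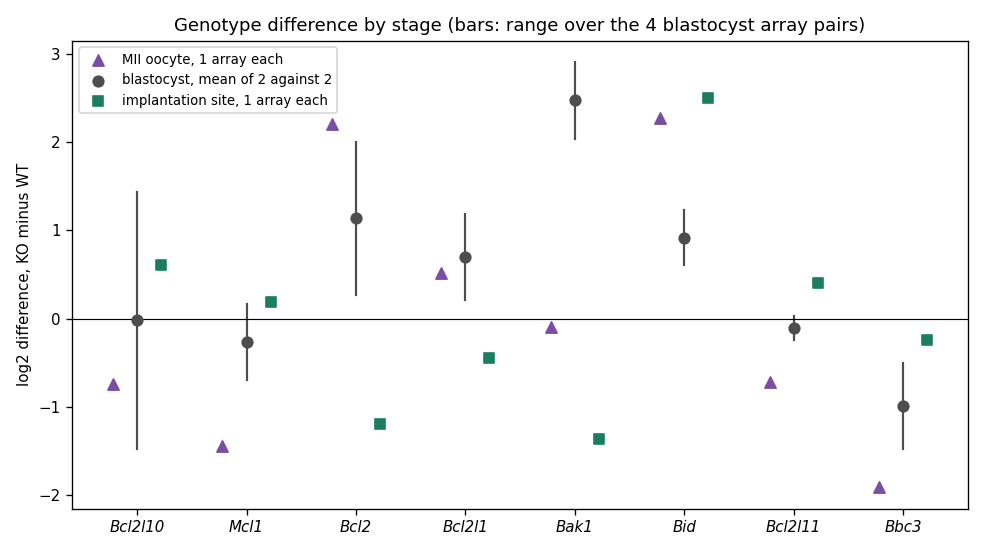
Log2 difference of KO minus WT by stage for the 8 measured genes; triangles are oocytes and squares implantation sites (1 array against 1), and circles are blastocysts (mean of 2 against 2) with a line over the range of the 4 array pairs. Values are as deposited and from the representing probe sets alone. Bbc3 is below 0 and Bid above 0 at all 3 stages, whereas Bak1 is at 2.47 in blastocysts, −0.10 in oocytes and −1.36 in implantation sites. Many of the Bid, Bak1 and Bbc3 values behind these differences are under the Bacillus control, as are all Bcl2l10 values in blastocysts and implantation sites.

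Among genes around p53, most regulators fell after the oocyte. Each listed gene here and below was read at its representing probe set alone, and its other probe sets were not compared. Those of Mdm4, Chek1, Ddb2 and Mfn1 carry the suffix described for Bak1, which marks probes shared by transcripts of more than 1 gene. Of 16 listed regulators, all tested, 11 fell and 1 rose from oocyte to blastocyst, and 4 were not called, against 18.6% of all genes lower and 26.9% higher. Their median log2 difference was −2.11, against 0.43 for all genes. Of the 2 main inhibitors of p53, Mdm4 read 9898 (KO) and 19275 (WT) in oocytes, between 211 and 604 in blastocysts, and 412 (KO) and 676 (WT) in implantation sites. It fell 42.4-fold to the blastocyst (log2 −5.41 ± 0.51 SE, adjusted p = 8.3e-06, limma). Mdm2, the ubiquitin ligase of p53, named here after its values were seen, read 2061 and 2860 in oocytes, 368 to 424 in blastocysts and 384 and 512 in implantation sites, a fall of 6.33-fold (adjusted p = 0.00020).

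The DNA damage kinases and the adaptor named below moved in both directions. Trp53bp1, which binds broken chromatin and p53, read 73700.1 (KO) and 134250 (WT) in oocytes, 4027 to 6448 in blastocysts and 26438 (KO) and 18419 (WT) in implantation sites. It fell 20.2-fold and then rose 4.49-fold (adjusted p = 3.1e-06 and 0.00083, limma). The checkpoint kinase gene Chek1 read 34630 (KO) and 66002 (WT) in oocytes, 4116 to 5405 in blastocysts and 1936 (KO) and 952 (WT) in implantation sites, and was 35.2-fold lower in implantation sites than in oocytes (adjusted p = 1.3e-05). Its relative Chek2, the regulator called higher in blastocysts, was at least 4.48-fold higher there than in oocytes, where it was not above background (adjusted p = 0.00062). Trp63, the p53 relative that guards the resting oocyte, read 724 (KO) and 1022 (WT) in oocytes and 16.3 to 141 in blastocysts, at least 2.74-fold lower (adjusted p = 0.0042).

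After the blastocyst, 5 of the 16 regulators rose and 3 fell to the implantation site, against 15.3% and 20% of all genes. Hipk2, a kinase that phosphorylates p53, had a course like that of Bcl2l11: it read 3842 and 4393 in oocytes, 466 to 586 in blastocysts and 4468 and 3391 in implantation sites, a rise of 7.28-fold from the blastocyst (adjusted p = 7.5e-05, limma). Between implantation site and oocyte 7 regulators were lower and 2 higher, against 16.6% and 20.5% of all genes. Among the regulators that fell there, Rchy1, another ubiquitin ligase of p53, was 10.7-fold lower (adjusted p = 8.3e-05). Leaving out 1 array in turn left 9 to 11 regulators lower from oocyte to blastocyst. From blastocyst to implantation site, 3 were higher without either array of that tissue and 1 was lower without its WT array. Against the oocyte, none was higher without the WT implantation site array and 1 without the WT oocyte array.

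The 20 listed p53 targets, all tested, had no common direction. From oocyte to blastocyst 8 rose and 3 fell, against 26.9% and 18.6% of all genes, with a median of 1.17 on the log2 scale against 0.43 for all genes; without the KO oocyte array 5 rose and 4 fell. Rrm2b, a subunit of ribonucleotide reductase, read 32407 (KO) and 45472 (WT) in oocytes, 229.5 to 612 in blastocysts and 1903 (KO) and 1767 (WT) in implantation sites, and fell 92.6-fold to the blastocyst (log2 −6.53 ± 0.38 SE, adjusted p = 7.7e-07, limma). The DNA repair gene Ddb2 fell 13.3-fold (adjusted p = 6.7e-06). Perp, a membrane protein gene of epithelia, read 469 and 449 in oocytes and 4042 to 7471 in blastocysts, a rise of 12.2-fold (adjusted p = 5.6e-06).

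To the implantation site 6 p53 targets rose and 3 fell from the blastocyst, against 15.3% and 20% of all genes, and without the KO implantation site array 3 rose. Zmat3, an RNA-binding protein gene, read 71.2 (KO) and 722 (WT) in oocytes, 105 to 469 in blastocysts and 3794 (KO) and 5062 (WT) in implantation sites, 15.8-fold above the blastocyst (adjusted p = 0.0046, limma). Gadd45a, a growth arrest gene, was 10.4-fold higher (adjusted p = 0.00086) and Sesn2, a stress-response gene, was lower (adjusted p = 5.8e-05), 35.4-fold as measured and 18.5-fold with the WT implantation site array, which was under the brightest Bacillus control, set to that control. Against the oocyte, 8 targets were higher and 5 lower in the implantation site (20.5% and 16.6% of all genes), among them Ccng1, which encodes a cyclin, 16.5-fold higher (adjusted p = 0.00077, limma); 2 were lower without the WT oocyte array and 3 without the KO implantation site array.

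**Figure D5:**
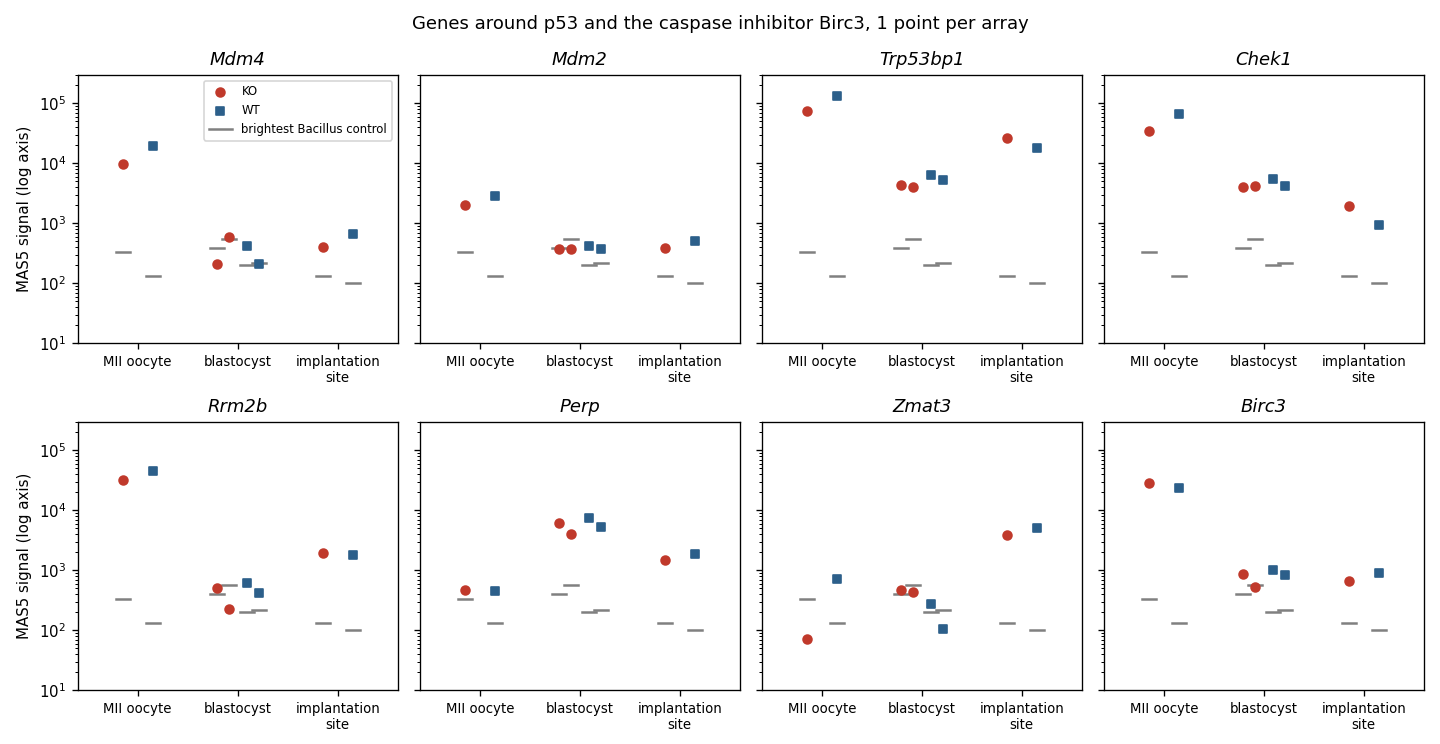
Signal (log axis, MAS5 units) of 8 genes around p53 and apoptosis by stage, 1 point per array, KO as circles and WT as squares, with the brightest Bacillus control as a grey line. Mdm4, Mdm2, Rrm2b and Birc3 are highest in both oocyte arrays, whereas Perp peaks in blastocysts and Zmat3 in implantation sites; heights are not comparable between panels.

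The rest of the BCL2 family, 16 further genes of which 11 were tested, had more rises than falls at the blastocyst. From oocyte to blastocyst 6 rose and 1 fell, where 26.9% of all genes rose and 18.6% fell, and the median was 1.67 against 0.43 for all genes. The BH3-only gene Bad read 566 (KO) and 67.6 (WT) in oocytes and 1025 to 2497 in blastocysts, 7.49-fold higher (adjusted p = 0.0030, limma). The effector relative Bok read 381 and 58.5 in oocytes and 409 to 1462 in blastocysts, 6.80-fold higher (adjusted p = 0.0064, limma). Bcl2l14 was also called higher (adjusted p = 0.0090, limma), 1.87-fold with its oocyte values set to the brightest Bacillus control, which 3 of 4 blastocyst values exceeded. In Bad, Bok and Bcl2l14 the KO oocyte array lay well above the WT one. The WT value of Bad and Bok was under the brightest Bacillus control, and with it set there the rises were 5.35-fold and 4.52-fold. Without the WT oocyte array 3 of the 11 genes were called higher.

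From blastocyst to implantation site 6 of these 11 fell and 1 rose, where 20% of all genes fell and 15.3% rose, with 3 to 4 lower when any 1 array was left out. Bnip3, a mitophagy gene induced by low oxygen, read 1417 (KO) and 1619 (WT) in oocytes, 5306 and 4308 (KO) and 7997 and 7366 (WT) in blastocysts, and 761 (KO) and 887 (WT) in implantation sites, a fall of 7.37-fold (adjusted p = 4.5e-05, limma). Bcl2l12 fell 10.7-fold (adjusted p = 0.0019, limma), or 7.58-fold with the implantation site value under the brightest Bacillus control, that of KO, set to it. The riser was Bcl2l2, the guardian BCL-W, which read 273 and 328 in oocytes, 158 to 393 in blastocysts, and 1091 (KO) and 1585 (WT) in implantation sites, 5.24-fold above the blastocyst (adjusted p = 0.0060); 1 of 4 blastocyst values was above the control, and with the others set to it the rise was 3.54-fold. Against the oocyte 2 were higher and 2 lower in implantation sites (20.5% and 16.6% of all genes), among the latter Bcl2l13 at 6.65-fold (adjusted p = 0.0034) and the BH3-only gene Bik at least 4.86-fold (adjusted p = 0.011). Leaving out 1 array in turn gave 0 to 3 higher and 1 to 3 lower, with none higher without the WT implantation site array.

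Downstream of the mitochondria, 5 of 13 tested apoptosome and caspase genes rose and 1 fell from oocyte to blastocyst, against 26.9% and 18.6% of all genes, with a median of 0.66 on the log2 scale; none fell when any array but blastocyst KO replicate 2 was left out. The executioner gene Casp6 was at least 4.23-fold higher in blastocysts than in oocytes (adjusted p = 0.0012, limma). Endog, a mitochondrial nuclease gene, was also called higher (adjusted p = 0.00055, limma), 2.48-fold with its oocyte values set to the control. Of its 4 blastocyst values 2 were above the control. Vdac2, whose product holds BAK at the mitochondrion, read 376 (KO) and 449 (WT) in oocytes and 1260.3 to 2532 in blastocysts, 4.16-fold higher (adjusted p = 0.00058). Endog, Casp6 and Vdac2 were also called higher in implantation sites than in oocytes, where 4 of the 13 were higher and none lower (20.5% and 16.6% of all genes); without the KO implantation site array 2 were higher. Between implantation site and blastocyst 1 was called, Casp2, at 2.68-fold higher (adjusted p = 0.033); this call was lost without blastocyst KO replicate 1, the array labelled WT replicate 2 or either implantation site array.

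Of 5 tested caspase inhibitors, Birc3 had an oocyte pattern like that of Bcl2l10. It read 28011 (KO) and 23175 (WT) in oocytes, 531 to 1007 in blastocysts and 654 (KO) and 894 (WT) in implantation sites, a fall of 32.4-fold to the blastocyst (log2 −5.02 ± 0.33 SE, adjusted p = 1.1e-06, limma). Unlike Bcl2l10 and Bcl2l11 it was not lower in the KO oocyte. Birc2 and Birc5 rose in the same step, Birc5 2.93-fold and Birc2 5.11-fold, or 2.77-fold with the KO oocyte value, which was under the control, set to it, and Birc5, survivin, which also acts in cell division, fell 5.39-fold to the implantation site (adjusted p = 0.0013).

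The death receptor list, with 5 genes tested, had 2 higher in blastocysts than in oocytes, 1 higher and 1 lower between implantation site and blastocyst, and 1 higher between implantation site and oocyte, where 45.5%, 35.3% and 37.2% of all genes were called. Fas, a receptor of the cell surface, was called higher in blastocysts than in oocytes (adjusted p = 0.0496, limma) and lower in implantation sites than in blastocysts (adjusted p = 0.045, limma). With the oocyte or implantation site values set to the control, the folds were 2.16 and 3.97. Of the 4 blastocyst values 3 were above the control. These counts changed with the scaling: after quantile normalization 1 was higher and 1 lower in the first step, and 0 to 2 were higher when 1 array was left out. Of 5 genes for mitochondrial fusion and fission, Opa1 fell 4.34-fold from oocyte to blastocyst (adjusted p = 0.00079) and was 2.63-fold higher in implantation sites than in blastocysts (adjusted p = 0.015, limma). Fis1 and Mfn1 were lower in implantation sites than in blastocysts, at 4.50-fold and 2.84-fold. In none of these 7 lists was a gene called between KO and WT, in blastocysts or over the 3 stages.

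The genes whose log2 signal followed that of a member most closely over the 8 arrays are given as a description, since the 8 points fall into 3 stages. Among 11156 genes with a full symbol, Pigf (r = 0.999), Cfap97 (0.996) and Ubxn4 (0.995) were nearest to Bcl2l10. Nearest to Mcl1 were Basp1 (0.998), Atp5j (0.997) and the elongation factor gene Eef1a1 (0.995). Nearest to Bcl2l11 were Fam76b (0.997), Surf4 (0.997) and Acat1 (0.994).

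For the other members the leading coefficients were 0.984 for Bcl2l1 with Tob2, followed by Kansl1 and Odf3b, 0.980 for Bcl2 with Ccbe1, followed by Igf1r and Fam219aos, 0.947 for Bak1 with Gria2, followed by Saraf and Ngp, and 0.927 for Bbc3 with Sgk1, followed by Oas1a and Mrpl18. Between members the highest coefficient was 0.796, for Bcl2 with Bcl2l1, and the lowest was −0.811, for Bcl2l10 with Mcl1.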

How the data were processed

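The deposited values are signal intensity on a linear scale from 8 arrays, made by the authors with MAS5 per the submitters' processing notes; the 2% trimmed mean was 500 on every array. Background was read from Bacillus control probe sets, which assumes that no Bacillus RNA was added; the sources used here do not say. Genes came from the platform annotation: 34945 probe sets had 1 gene, 932 several and 9160 none. Probe sets in the upper 50% by mean log2 signal (at least 151 units) were kept. Log2 signal was tested with limma 3.58.1 in R 4.3.3 (lmFit, eBayes with intensity trend, two-sided, Benjamini-Hochberg over 11746 genes): KO against WT in 4 blastocyst arrays, and stage plus genotype over 8 arrays. Simulated data with known changes tested both fits. Pairs of 1 array have values only, and the number of arrays limits precision. Where a group was at or below the brightest Bacillus control on all its arrays, that control was its floor ("at least"). If the brighter group also had arrays under the control, the floored fold is given without "at least". Where only some arrays of the dimmer group were under it, a fold with those arrays at the floor is given if it differs by over about 1.5 times. Named genes were the members, Gja1, up to 3 called, non-overlapping genes of largest difference per list and comparison, and the 3 most correlated genes per member. Members, lists and rules were chosen with earlier results of these data known. Replicate numbers did not pair blastocyst arrays: replicate differences of KO and WT correlated at r = 0.0182 over genes. Alternatives changed scaling, pseudocount, filter, probe set choice, trend, block and arrays. Plots used matplotlib 3.10.9 in Python 3.11.15.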

Additional observations from a re-analysis of the deposited data

Results flagged for a closer look

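For 3 members the KO and WT arrays of one stage differed in the opposite direction to every pair of blastocyst arrays at the representing probe set. The measured log2 difference of Bak1 (KO minus WT) was 2.47 in blastocysts, −0.10 in oocytes and −1.36 in implantation sites. With values of the dimmer group under the brightest Bacillus control of their array set to it, Bak1 was 2.11-fold higher in KO blastocysts, where 1 of 2 KO values was above the control. On the same basis it was at least 1.31-fold lower in the KO implantation site, and the oocyte pair gives no fold. Bcl2 was 1.14 higher in KO blastocysts at its representing probe set (−1.69 at 1437122_at) and differed by −1.19 in implantation sites. Bcl2l1 was 0.70 higher in KO blastocysts and differed by −0.45 in implantation sites. In each of these 4 cases the other stage has 1 array per genotype, so the difference was not tested.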

How the results depend on the processing

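Bcl2l10 and Mcl1 kept their calls against the oocyte under every alternative in which they were tested, and Bcl2l11 kept its fall from oocyte to blastocyst except with the mean of all its probe sets (−0.78, adjusted p = 0.18). With that mean the rise of Bcl2l11 to the implantation site changed sign (−0.36). No member was called between genotypes under any alternative, the replicate block included (0 of 7). Calls between implantation site and blastocyst, 2 in the report, numbered 0 with probe sets without suffix, 1 without the intensity trend, 5 of 8 genes (Bid included) with every probe set in a fit of its own, and 1 to 3 when an array was left out. Members at least 2-fold apart in implantation sites, 2 in the report, numbered 0 after quantile normalization or with a pseudocount of 50, 1 with scaling to a common median and 1 with probe sets without suffix; in oocytes, 3 in the report, they numbered 5 with a common median. With a common median, genes called between implantation site and blastocyst split into 2066 higher and 1598 lower, against 1798 and 2353 as deposited, and blastocyst KO against WT into 59 and 14, against 12 and 0; the replicate block gave 91 and 1 there. The median difference of all genes moved from −0.35 to 0.0050 between implantation site and blastocyst, from 0.43 to 0.26 between blastocyst and oocyte, from 0.09 to −0.45 between KO and WT oocytes and from −0.13 to 0.28 between KO and WT implantation sites.

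Several log2 differences changed sign, and the cause was not tested. Between implantation site and blastocyst they include the called rises of Bcl2l11 (3.25 in the report) and Mcl1 (1.10), and Bcl2 (−0.52, not called). With the mean of all probe sets Bcl2 was at −0.12 (KO blastocysts), −0.043 (common KO effect), 2.23 (implantation site against blastocyst, adjusted p = 0.014) and 1.47 (against oocyte), and Bcl2l11 at 0.12 (KO blastocysts) and −0.36 (implantation site against blastocyst). With probe sets without suffix Bcl2l11 was at 0.36 (KO blastocysts) and 0.020 (common), and Mcl1 at 0.061 (KO blastocysts), −0.17 (implantation site against blastocyst) and 0.016 (common). The common KO effect without the oocytes was 0.19 for Bcl2l10 and 0.065 for Bcl2l11, and without the blastocysts −0.73 for Bak1. Leaving out 1 array, blastocyst against oocyte ranged from −1.09 to 0.20 for Bak1, −0.60 to 0.57 for Bbc3 and −1.46 to 0.39 for Bcl2. Implantation site against blastocyst ranged from −2.30 to 0.68 for Bak1, −0.26 to 0.80 for Bbc3 and −1.86 to 0.82 for Bcl2, and against oocyte from −2.74 to 0.24, −0.33 to 0.84 and −2.40 to 0.29. KO against WT blastocysts ranged from −1.22 to 1.18 for Bcl2l10 and −0.65 to 0.12 for Mcl1, and the common effect from −0.52 to 0.44 for Bcl2l10 and −0.31 to 0.065 for Bcl2l11. Signal near the Bacillus controls limits Bak1, Bid and Bbc3, and signal under them limits Bcl2l10 in blastocysts and implantation sites.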
